A study of Mus musculus with 2 samples.

Results

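The transcripts of 9 cytokine and chemokine receptors were followed through mouse haematopoietic stem and progenitor cells: Kit, Csf3r, Csf2rb, Il6st, Il1r1, Ifnar1, Ifngr1, Tgfbr1 and Cxcr4. They were taken as a named list from the 31053 genes of a CITE-seq count matrix, not by a cut on measured values. Earlier results of these data were known when the list was chosen. All 9 passed the minimum of 100 UMIs (unique molecular identifiers, each standing for 1 captured transcript end) that left 11689 genes for comparison, and the least counted of them had 827 UMIs. The question was which of these receptors are held by cells in the stem cell gate and which come with CD48, a surface protein of more mature progenitors.

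The cells were LSK cells (Lineage negative, Sca1 positive, c-Kit positive) enriched with anti-c-Kit and sorted from bone marrow of C57BL/6JRj mice. One library came from young mice of 3-5 months and the other from old mice of 22-28 months, with no treatment or engineered allele stated in either, and each pooled 4 mice per the methods. Cell barcodes carried the suffix 1 or 2 for the library, and no barcode sequence was shared between them (0 shared). The labels do not tie a suffix to an age, so the libraries are given here as suffix 1 and suffix 2 and young and old mice were not compared. With 1 library per age there was no replicate and no test was made. Every interval below is an exact 95% interval and covers counting error only.

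Haematopoietic stem cells read their surroundings through a small set of receptors. KIT binds stem cell factor, CXCR4 binds CXCL12 and holds the cells in their niche, and the TGF-beta receptor carries signals that favour quiescence. Receptors for G-CSF, IL-3 and GM-CSF drive myeloid output, IL-1 and the interferons act as inflammatory signals, and gp130 (Il6st) is the chain shared by the IL-6 family. In practice stem cells are enriched within LSK cells as CD150 positive and CD48 negative, the SLAM phenotype.

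In each library the cells were split by antibody tags into 4 gates, at the 75th percentile of the CD150 tag and the 25th percentile of the CD48 tag. Of 4688 cells, 4068 had under 10% mitochondrial UMIs and more than 1500 genes, and 3986 of these had tags (1497 in suffix 1 and 2489 in suffix 2). The CD150-high CD48-low gate held 555 cells, the CD150-low CD48-low gate 454, the CD150-high CD48-high gate 450 and the CD150-low CD48-high gate 2527. Median UMIs per cell were 13334, 11557, 16660 and 16343 in that order. The tag limits differed widely between the libraries: CD150-high began at 40 tags in suffix 1 and at 407 in suffix 2, and CD48-low ended at 224 and 42 tags. The gates followed the genes of their 2 tags. Cd48 lay at 0.888 and 1.52 CPM (the gene's UMIs scaled to the total UMIs of the same cells, suffix 1 then suffix 2) in the CD150-high CD48-low gate against 97.7 and 134 CPM in the opposite corner, and Slamf1, which encodes CD150, at 16.9 and 64.2 against 0.397 and 2.53 CPM. The 8 listed stem cell transcripts, Slamf1 among them, separated the gates to differing degrees. Over CD48-low against CD48-high cells Vwf (4.43 and 5.25), Hoxb5 (4.57 and 4.32) and Mllt3 (3.42 and 4.28) had CPM ratios near that of Slamf1 (4.25 and 5.26), and Hlf, which gave the most UMIs of the 8, had 1.45 and 1.83. Together the 8 summed to 959 and 1288 CPM in the CD150-high CD48-low gate and to 957 and 981 CPM in the CD150-low CD48-low gate. They summed to 488 and 331 CPM in the CD150-low CD48-high gate. The CD150-high CD48-high gate read 686 and 1058 CPM, in suffix 2 above the CD150-low CD48-low gate. Hlf was higher in the CD150-low CD48-low gate (653 and 419 CPM) than in the CD150-high CD48-low gate (432 and 322 CPM), which also held the progenitor transcript Cd34 at 202 and 40.3 CPM. That gate is called the stem cell gate below after its surface phenotype. The sort marker Ly6a was found in every gate at 199 to 576 CPM. Summed markers of T cells stayed at or under 0.570 CPM in every gate, and neutrophil markers at or under 12.9 CPM. Erythroid markers reached 115 CPM in the CD150-low CD48-low gate of suffix 2 against 0.792 to 7.40 CPM elsewhere, basophil and mast cell markers reached 26 CPM in the CD150-low CD48-high gate of suffix 2 against 0.380 to 16.1 CPM elsewhere, and stromal and endothelial markers read 32.0 to 56.2 CPM, nearly all of it Pecam1, since Cdh5, Lepr and Cxcl12 each had at most 10 UMIs on either side of the CD48 split in a library. The part of such cells in the receptor levels was not tested, other than by leaving out immunoglobulin-rich cells. Immunoglobulin-rich cells numbered 12 (2 and 10), and the summed plasma and B cell markers reached 5040.0 CPM in the CD150-low CD48-high gate of suffix 2 against 42.6 to 552 CPM elsewhere. Leaving these cells out left the CD48-low to CD48-high CPM ratio of Cxcr4 at 0.512 and moved that of Csf2rb from 0.524 to 0.522.

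The upstream sequences of Csf3r, Il1r1 and Cxcr4, which were lower together in the stem cell gate, and of Il6st, which was highest there, are printed so that their proximal promoters can be compared. They are RefSeq windows on GRCm38.p6, found for 8 of the 9 receptors (11 windows), and are shown up to the annotated start or at most 30 bases past it. Capitals mark matches, on either strand, to 5 short motifs, and a match describes letters, not binding. GAGGAA, the core bound by PU.1-type ETS factors, occurred in 23.3% of all 32851 windows. The GC box GGGCGG occurred in 32.7% and the RUNX core TGTGGT in 14.0%. The TATA box TATAAA occurred in 12.4% and the sequence CCAAT in 33.8%.
Csf3r, chr4:126024409-126024579, plus strand: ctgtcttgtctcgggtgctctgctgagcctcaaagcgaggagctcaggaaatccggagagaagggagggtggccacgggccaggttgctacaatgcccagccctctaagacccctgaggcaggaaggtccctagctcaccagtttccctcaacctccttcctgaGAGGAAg
Il1r1, chr1:40224830-40225079, plus strand: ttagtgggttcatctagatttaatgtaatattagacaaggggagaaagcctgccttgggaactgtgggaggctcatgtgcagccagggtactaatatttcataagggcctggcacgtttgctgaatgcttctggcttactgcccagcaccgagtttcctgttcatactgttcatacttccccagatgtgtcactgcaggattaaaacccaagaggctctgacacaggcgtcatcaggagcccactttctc
Cxcr4, chr1:128592300-128592549, minus strand: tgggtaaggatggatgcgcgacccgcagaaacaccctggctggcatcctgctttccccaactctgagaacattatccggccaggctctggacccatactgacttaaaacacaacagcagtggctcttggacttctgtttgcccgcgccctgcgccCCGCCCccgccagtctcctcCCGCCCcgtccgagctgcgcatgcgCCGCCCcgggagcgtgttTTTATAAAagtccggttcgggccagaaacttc
Il6st, chr13:112463820-112464069, plus strand: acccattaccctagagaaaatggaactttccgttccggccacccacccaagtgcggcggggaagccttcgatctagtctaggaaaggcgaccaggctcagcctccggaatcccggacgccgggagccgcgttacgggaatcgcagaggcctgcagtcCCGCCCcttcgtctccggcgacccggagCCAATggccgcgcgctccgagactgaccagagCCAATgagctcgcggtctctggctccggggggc
The Csf3r stretch held a single GAGGAA, 86 bases before the RefSeq start but past the GENCODE start of the gene (126024550), within the last 30 bases shown. The first Il1r1 window held none of the 5 motifs and had 48.4% GC, below the median of 52.4% over all windows. A second Il1r1 window, chr1:40266336-40266585, is not printed and held 1 GC box and 1 CCAAT at 60.4% GC. The Cxcr4 window held 3 GC boxes and a TATAAA that overlaps its own reverse complement, while Il6st held 2 CCAAT boxes and 1 GC box at 66.0% GC.

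At the tag limits of each library, the IL-1 receptor and CXCR4 were the receptors more than 1.5-fold lower in CD48-low cells of both libraries. Cxcr4 did not pass 1.5-fold once cells with cycling transcripts were left out, while Csf3r did. With the same tag limits in both libraries, Csf3r and Csf2rb passed too. CD48-high cells were mostly CD150-low (2527 against 450), so the split does not set CD48 apart from CD150. Across 4 CD150 tag bins, lowest to highest, pooled Il1r1 went from 29.6 to 6.45 CPM and Cxcr4 from 47.4 to 25.6. Il1r1 lay at 11.3 and 3.68 CPM in CD48-low cells of suffix 1 and suffix 2, against 28.3 and 17 CPM in CD48-high cells. Cxcr4 lay at 26.8 and 19.4 against 48.4 and 40.0 CPM. The G-CSF receptor Csf3r was also lower without CD48, and gp130 (Il6st) had the largest pooled ratio in favour of CD48-low cells. The gp130 direction turned as UMIs per cell, a scaling that lowers the ratio of every gene alike. Kit, the interferon receptors and Tgfbr1 stayed within 1.5-fold in both libraries.

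A receptor was counted as different when its CPM ratio passed 1.5-fold in the same direction in both libraries. By that rule 2 of 9 receptors were lower in CD48-low cells, where 7.33% of the 11689 genes were, and 0 of 9 were higher, where 8.17% were. Among the 8031 genes with at least as many UMIs as the least counted receptor the shares were 6.52% and 3.69%. The median CPM ratio over the 9 receptors was 0.831, beside 0.988 over all genes compared. These are counts over a short list and carry no test.

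**Figure D1:**
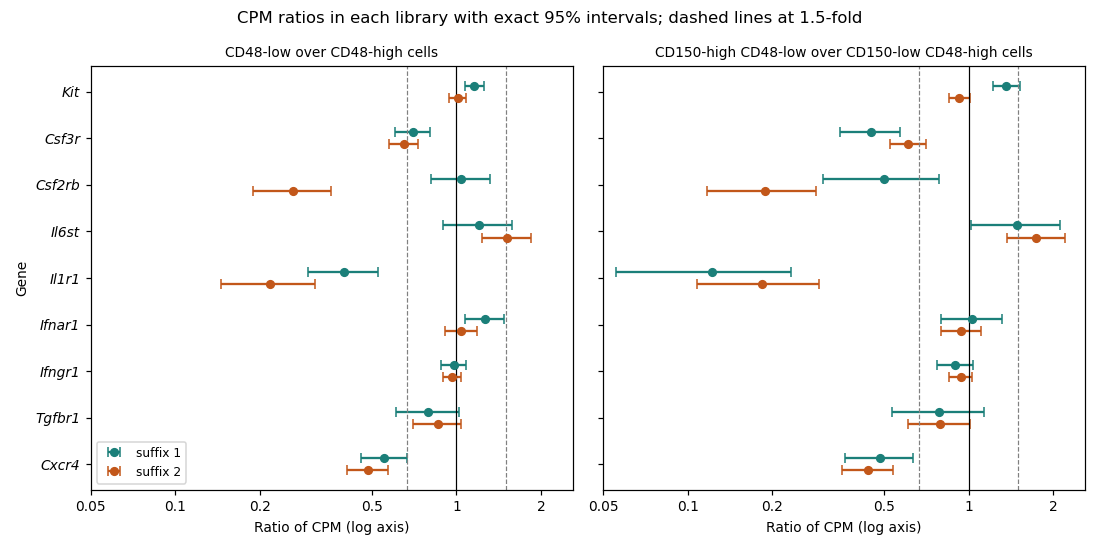
Ratio of CPM, on a log axis, for each receptor in CD48-low over CD48-high cells (left) and in CD150-high CD48-low over CD150-low CD48-high cells (right), with a point and exact 95% interval for each library and dashed lines at 1.5-fold. Il1r1 and Cxcr4 lie left of the dashed line in both libraries and both panels, and Csf2rb differs between the libraries on the left.

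Il1r1, the signalling receptor of IL-1 (chromosome 1, 40225080 to 40317257, plus strand, GRCm38), had the lowest ratio. Its CPM ratio of CD48-low to CD48-high cells was 0.399 (0.296 to 0.527) in suffix 1 and 0.217 (0.145 to 0.313) in suffix 2. Over the 4 gates, in the order CD150-high CD48-low, CD150-low CD48-low, CD150-high CD48-high and CD150-low CD48-high, it read 4.00, 17.8, 12 and 32.7 CPM in suffix 1. In suffix 2 the same gates read 3.42, 4.17, 5.85 and 18.6 CPM. The CD150-low CD48-high gate was highest in both libraries, with an interval clear of the other 3 gates. The lowest was the CD150-high CD48-low gate, whose interval in suffix 2 (2.03 to 5.40 CPM) overlapped both its neighbours. The gene overlaps the uncharacterised Gm38070 on the same strand in the GENCODE annotation. Whether Gm38070 was among the genes counted was not checked, so any effect on the Il1r1 count is not known.

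After each cell was thinned to 9000 UMIs, 2.89% (1.63 to 4.72) of CD150-high CD48-low cells and 17.8% (16.3 to 19.4) of CD150-low CD48-high cells held an Il1r1 UMI. Before thinning the shares were 4.32% and 30.6%. The 12 immunoglobulin-rich cells, the only other cell type at hand, had a median of 34073 UMIs and showed 0 of 12 after thinning (exact upper limit 26.5%) and 8.33% before it. They are few and themselves held Csf2rb in 75% and Cxcr4 in 66.7% of cells unthinned, so they are no measure of background for every receptor, and the part of free RNA was not tested.

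Cxcr4, the CXCL12 receptor (chromosome 1, 128588199 to 128592293, minus strand), was highest in the CD150-low CD48-high gate. It read 24.9, 28.5, 36.5 and 51.5 CPM in suffix 1 and 18.6, 20.8, 23.6 and 42.3 CPM in suffix 2, with the gates in the order above. The CD150-low CD48-high gate stood above all others in both libraries. The 2 CD48-low gates did not differ beyond their intervals in either library, and the CD150-high CD48-high gate overlapped both CD48-low gates in both libraries. The CD48 ratio was 0.553 (0.457 to 0.665) in suffix 1 and 0.485 (0.409 to 0.572) in suffix 2. The thinned share of cells with a UMI was 14.3% (11.4 to 17.6) in the CD150-high CD48-low gate and 27.3% (25.5 to 29.1) in the opposite corner, against 21.3% and 45.5% unthinned. In the immunoglobulin-rich cells it was 8.33% thinned (0.211 to 38.5) and 66.7% unthinned.

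The Cxcr4 ratio was nearer to 1 among cells without cycling transcripts. After thinning, 20.2% of CD150-high CD48-low cells and 56.9% of CD150-low CD48-high cells held a UMI of at least 1 of 10 cycling genes. With every cell holding such a UMI left out, the CD48 ratio of Cxcr4 was 0.678 (0.494 to 0.920) in suffix 1 and 0.807 (0.637 to 1.02) in suffix 2, no longer past 1.5-fold. Il1r1 in the same cells kept ratios of 0.285 (0.176 to 0.443) and 0.221 (0.133 to 0.350). The part of cycling in the Cxcr4 difference was not tested.

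**Figure D2:**
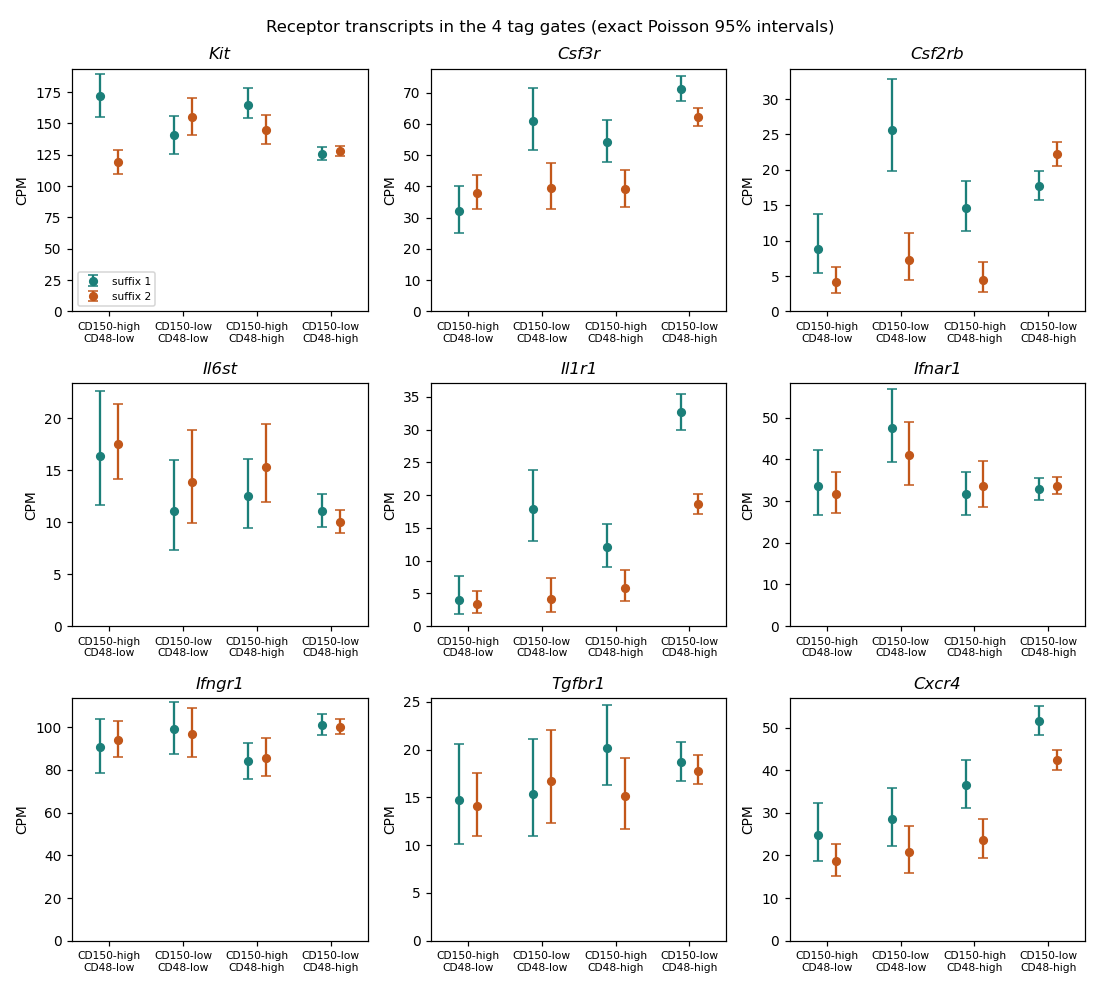
CPM of each receptor (vertical axes, from 0) in the 4 tag gates (horizontal axes), with a point and exact Poisson 95% interval for each library. Il1r1 and Cxcr4 are highest in the CD150-low CD48-high gate of both libraries, Il6st has its highest points in the CD150-high CD48-low gate, and Ifngr1 stays between 84.0 and 101 CPM throughout.

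Csf3r, the receptor for G-CSF (chromosome 4, 126024550 to 126044440, plus strand), was lower in CD48-low cells at 47.3 and 38.5 CPM against 67.6 and 59.2 CPM. The ratios were 0.700 (0.606 to 0.805) and 0.651 (0.576 to 0.733), so it missed the 1.5-fold rule in suffix 1 although both intervals lay below 1. Over the gates it read 32.0, 61.0, 54.1 and 71.1 CPM in suffix 1 and 38.0, 39.6, 39.1 and 62.1 CPM in suffix 2. In suffix 2 the 3 lower gates did not differ beyond their intervals and the CD150-low CD48-high gate stood alone. In suffix 1 the CD150-high CD48-low gate stood below the other 3, and the CD150-high CD48-high gate below the CD150-low CD48-high gate. A UMI was found in 27.0% (23.2 to 31.0) of the stem cell gate and 43.7% (41.8 to 45.7) of the opposite corner after thinning, in 38.0% and 66.0% before it, and in 0 of 12 immunoglobulin-rich cells (upper limit 26.5%; 16.7% unthinned). In cells with no cycling UMI both libraries passed the rule, at 0.591 (0.482 to 0.721) and 0.599 (0.512 to 0.698).

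Csf2rb, the common beta chain of the IL-3, IL-5 and GM-CSF receptors (chromosome 15, 78325752 to 78353847, plus strand), behaved differently in the 2 libraries. In suffix 1 it read 17.8 CPM in CD48-low and 17.1 CPM in CD48-high cells, a ratio of 1.04 (0.813 to 1.32). In suffix 2 it read 5.28 against 20.0 CPM, a ratio of 0.263 (0.189 to 0.359). This difference between the libraries was not seen at tag limits shared by both. There suffix 1 had 0 UMIs in its few CD48-low cells (ratio at most 0.316) and suffix 2 a ratio of 0.326 (0.258 to 0.407). By gate, suffix 1 gave 8.88, 25.7, 14.6 and 17.7 CPM, so that its highest level was in the CD150-low CD48-low gate. Suffix 2 gave 4.18, 7.29, 4.50 and 22.3 CPM, with the highest level in the CD150-low CD48-high gate. The CD150-high CD48-low gate was the lowest point in both, though its interval overlapped that of the CD150-high CD48-high gate in each library.

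The paralog Csf2rb2 lies 20030 bases away and shares 18.4% of the 50-base words of the Csf2rb transcript, but 0% of those in its last 500 bases, where reads of a 3′ library fall. Csf2rb2 itself read 3.98 and 3.68 CPM in CD48-low against 2.56 and 2.86 CPM in CD48-high cells, and the intervals of its ratios, 0.874 to 2.65 and 0.826 to 1.95, included 1. Immunoglobulin-rich cells held 45.6 CPM (27.4 to 71.2) of Csf2rb, more than any gate of stem and progenitor cells pooled over both libraries (5.59 to 20.6 CPM). Thinned, 5.01% (3.30 to 7.25) of stem cell gate cells and 16.8% (15.3 to 18.3) of the opposite corner held a UMI, against 33.3% of these 12 cells. Unthinned the shares were 6.67%, 29.5% and 75%.

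Il6st, which encodes gp130 (chromosome 13, 112464070 to 112510086, plus strand), was the receptor with the largest CPM ratio of the stem cell gate to the opposite corner in both libraries. CD48-low cells read 13.6 and 16.2 CPM and CD48-high cells 11.3 and 10.7 CPM, a ratio of 1.20 (0.898 to 1.58) in suffix 1 and 1.52 (1.23 to 1.85) in suffix 2. By gate it read 16.4, 11.1, 12.5 and 11.1 CPM in suffix 1 and 17.5, 13.9, 15.3 and 10.0 CPM in suffix 2. The CD150-high CD48-low gate was highest in both, but in suffix 1 its interval (11.6 to 22.6 CPM) overlapped all 3 others. In suffix 2 it cleared only the CD150-low CD48-high gate. At tag limits shared by both libraries it was lowest in suffix 1 at 7.60 CPM (1.57 to 22.2), on 3 UMIs, and highest in suffix 2 at 16.3 CPM. The CD48 ratio was then 0.766 (0.279 to 1.69) and 1.36 (1.13 to 1.63). The direction also depended on scaling: counted as UMIs per cell, without division by the cells' total, the pooled ratio was 0.923 in place of 1.39. That scaling lowers the pooled ratio of every gene by the same factor, since CD48-low cells held fewer UMIs in all. Ifngr1, for one, went from 0.971 to 0.643. The thinned share of cells with a UMI was 15.0% (12.1 to 18.4) against 8.75% (7.65 to 9.94), and 19.8% against 16.9% unthinned. The CD150-high CD48-high gate was close to the stem cell gate, with 14.0% (10.9 to 17.5) thinned, 24.2% unthinned and 0.280 against 0.232 UMIs per cell. In immunoglobulin-rich cells it was 16.7% (2.09 to 48.4), an interval too wide to set the shares apart.

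Kit, the stem cell factor receptor and a gene by whose protein the cells were sorted (chromosome 5, 75574916 to 75656722, plus strand), was present in every gate. It read 172, 141, 165 and 126 CPM in suffix 1 and 119, 155, 145 and 128 CPM in suffix 2. The stem cell gate was thus the highest in suffix 1 and the lowest in suffix 2, in each case with an interval that overlapped its neighbour's. Neither rank held at tag limits shared by both libraries, where it read 142 CPM in suffix 1, below 164 and 178 CPM in the CD150-low CD48-low and CD150-high CD48-high gates, and 128 CPM in suffix 2, above 124 CPM in the CD150-low CD48-high gate. Since cells without c-Kit protein were sorted away, these levels lie within a c-Kit positive population. The CD48 ratio was 1.16 (lower bound 1.07) and 1.01 (0.945 to 1.08), and 1.06 pooled, which turned to 0.705 as UMIs per cell. Without cycling cells the ratio was 0.985 (0.873 to 1.11) and 0.818 (0.749 to 0.894).

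Of the interferon receptors, Ifngr1 stayed within a narrow range and Ifnar1 varied more. Ifngr1, the ligand-binding chain for interferon gamma (chromosome 10, 19591949 to 19610229, plus strand), read 90.6, 99.3, 84.0 and 101 CPM in suffix 1 and 94.2, 96.9, 85.7 and 100.3 CPM in suffix 2. Its CD48 ratio was 0.978 (0.882 to 1.08) and 0.966 (0.893 to 1.04), so a difference within these bounds was not detectable at this depth. The CD150-high CD48-high gate was lowest in both libraries, with an interval clear of the CD150-low CD48-high gate. Ifnar1, a chain of the type I interferon receptor (chromosome 16, 91485238 to 91507441, plus strand), read 33.7, 47.5, 31.6 and 32.8 CPM in suffix 1 and 31.7, 41.0, 33.7 and 33.7 CPM in suffix 2. Its highest level was in the CD150-low CD48-low gate of both libraries, where in suffix 1 it cleared both CD48-high gates and in suffix 2 overlapped all 3 others. Its CD48 ratio was 1.26 (1.07 to 1.48) and 1.04 (0.910 to 1.18), and the pooled 1.12 turned to 0.741 as UMIs per cell, 0.762 in cells with more than 2500 genes and less than 5% mitochondrial UMIs and 0.955 without cycling cells.

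Tgfbr1, the type I receptor that carries the kinase signal of TGF-beta (chromosome 4, 47353222 to 47414931, plus strand), read 14.7, 15.4, 20.2 and 18.7 CPM in suffix 1 and 14.1, 16.7, 15.1 and 17.8 CPM in suffix 2. The intervals of all 4 gates overlapped within each library. Its CD48 ratio was 0.794 (0.610 to 1.02) and 0.857 (0.699 to 1.04). Of the CD150-high CD48-low cells 11.9% (9.28 to 15.1) held a UMI after thinning, against 16.7% (2.09 to 48.4) of immunoglobulin-rich cells, an interval too wide to set the shares apart.

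The stem cell gate against the opposite corner set the most receptors apart by the 1.5-fold rule. In CD150-high CD48-low cells 4 of 9 receptors were lower than in CD150-low CD48-high cells, Csf3r, Csf2rb, Il1r1 and Cxcr4, where 9.84% of all genes were, and 0 of 9 were higher, where 11.0% were. Among the 8031 better counted genes the shares were 8.93% and 5.62%. The members' median ratio was 0.785, beside 0.976 over all genes. Il1r1 had ratios of 0.122 (0.0557 to 0.234) and 0.184 (0.108 to 0.293). Csf2rb had 0.5 (0.302 to 0.786) and 0.188 (0.117 to 0.286), on 20 and 22 UMIs in the stem cell gate. Cxcr4 had 0.483 (0.362 to 0.632) and 0.439 (0.354 to 0.54), and Csf3r 0.449 (0.349 to 0.570) and 0.611 (0.526 to 0.707). Il6st ran the other way at 1.49 (1.02 to 2.12) and 1.74 (1.37 to 2.21), just short of the rule in suffix 1. Without cycling cells Cxcr4 stood at 0.575 (0.361 to 0.882) and 0.719 (0.536 to 0.954), and in suffix 2 no longer passed 1.5-fold.

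Among CD48-low cells the CD150 tag separated fewer receptors. Csf2rb was lower in CD150-high cells at 0.345 (0.198 to 0.577) and 0.573 (0.300 to 1.09), 1 of 9 receptors where 3.06% of genes were lower, and 0 of 9 were higher where 2.65% were (1.83% and 0.672% of the better counted genes). This call was lost as UMIs per cell, after thinning and at 2-fold. With percentiles shared by both libraries it could not be made, since suffix 1 had 0 UMIs in both gates, while suffix 2 had a ratio of 0.255 (0.159 to 0.403). Il1r1 was lower in suffix 1 at 0.224 (0.0964 to 0.465) but not past 1.5-fold in suffix 2 at 0.820 (0.374 to 1.87), where 18 and 12 UMIs were counted. Ifnar1 was lower by less than 1.5-fold in both, at 0.710 (0.526 to 0.955) and 0.774 (0.608 to 0.988).

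Among CD48-high cells Il1r1 was lower in CD150-high cells at 0.368 (0.275 to 0.485) and 0.315 (0.204 to 0.466), 1 of 9 where 2.89% of genes were lower, and 0 of 9 were higher where 6.35% were (1.57% and 2.58% of the better counted genes). Cxcr4 had 0.709 (0.598 to 0.836) and 0.558 (0.453 to 0.681) and Csf3r 0.761 (0.662 to 0.872) and 0.630 (0.536 to 0.736). In both cases the intervals lay below 1 in both libraries and the 1.5-fold rule was met in suffix 2 alone, as it was for Csf2rb with 0.823 (0.624 to 1.07) and 0.202 (0.123 to 0.314). Kit was higher in CD150-high cells at 1.31 (1.21 to 1.42) and 1.13 (1.04 to 1.23). Without cycling cells Kit had 1.29 (1.09 to 1.52) and 0.939 (0.830 to 1.06). Cxcr4 then had 0.709 (0.431 to 1.11) and 0.762 (0.531 to 1.07), and Csf3r 0.953 (0.731 to 1.23) and 0.529 (0.417 to 0.665). Il1r1 stayed past 1.5-fold at 0.413 (0.215 to 0.728) and 0.249 (0.122 to 0.458).

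Cells were also ranked by the CD48 tag within each library and cut into 4 bins of equal size, which showed how the levels differed along the tag. Il1r1 went from 11.3 through 17 to 33.0 and 31.8 CPM in suffix 1 and from 3.68 through 6.29 to 19.3 and 21.8 CPM in suffix 2. Its step thus lay between bins 2 and 3, with no difference beyond the intervals between the upper 2. Cxcr4 was higher in each next bin, at 26.8, 35.1, 44.0 and 59.4 CPM in suffix 1 and 19.4, 23.8, 32.7 and 54.6 CPM in suffix 2, with overlapping intervals in bins 1 and 2 of both libraries and in bins 2 and 3 of suffix 1. Csf2rb was flat in suffix 1 at 17.8, 18.1, 15.2 and 17.8 CPM and higher in each next bin of suffix 2, at 5.28, 12.9, 19.0 and 25 CPM. Csf3r read 47.3, 56.3, 76.3 and 68.2 CPM in suffix 1 and 38.5, 48.1, 61.8 and 64.1 CPM in suffix 2, with bins 2 and 3 clear of each other in both libraries and bins 1 and 2 in suffix 2. Il6st was highest in bin 1 of both libraries, at 13.6 and 16.2 CPM, and only in suffix 2 did this clear the interval of bin 4. Kit was lowest in bin 4, at 111 and 108 CPM, clear of the other 3 bins in both libraries.

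**Figure D3:**
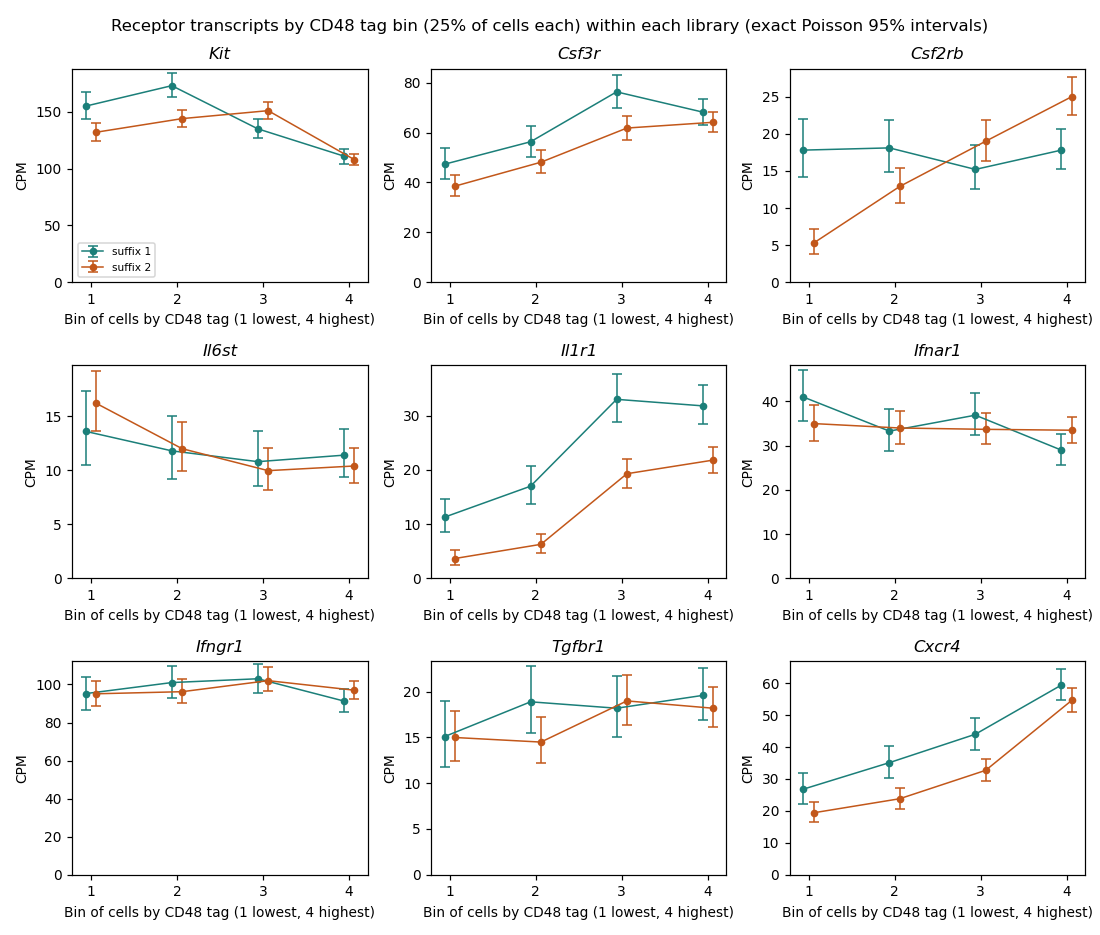
CPM of each receptor (vertical axes, from 0) in 4 bins of cells of equal size ordered by the CD48 tag within each library (horizontal axes, 1 lowest), with exact Poisson 95% intervals. Il1r1 steps up between bins 2 and 3, Cxcr4 is higher in each next bin up to 59.4 and 54.6 CPM, and Csf2rb does so in suffix 2 while its suffix 1 points stay between 15.2 and 18.1 CPM.

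The libraries were then split at the same tag counts, 161 for CD150 and 75 for CD48, since their own limits differed. This left 33 and 20 CD48-low cells in the 2 CD150 gates of suffix 1, against 614 and 332 in suffix 2. Neither Csf2rb nor Il1r1 had a UMI in the CD48-low cells of suffix 1 (0 UMIs), and the exact intervals put their CD48 ratios at no more than 0.316 and 0.215. In suffix 2 the ratios were 0.326 (0.258 to 0.407) and 0.241 (0.180 to 0.317). With shared limits Csf3r also passed the rule, at 0.535 (0.338 to 0.806) and 0.645 (0.583 to 0.712), so that 4 of 9 receptors were lower in CD48-low cells, where 8.82% of the 11689 genes were lower and 9.03% higher (7.97% and 4.56% of the better counted genes). Csf2rb then read 10.9 and 9.58 CPM in the CD150-high CD48-high gate, with overlapping intervals, where the limits of each library gave 14.6 and 4.50 CPM.

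**Figure D4:**
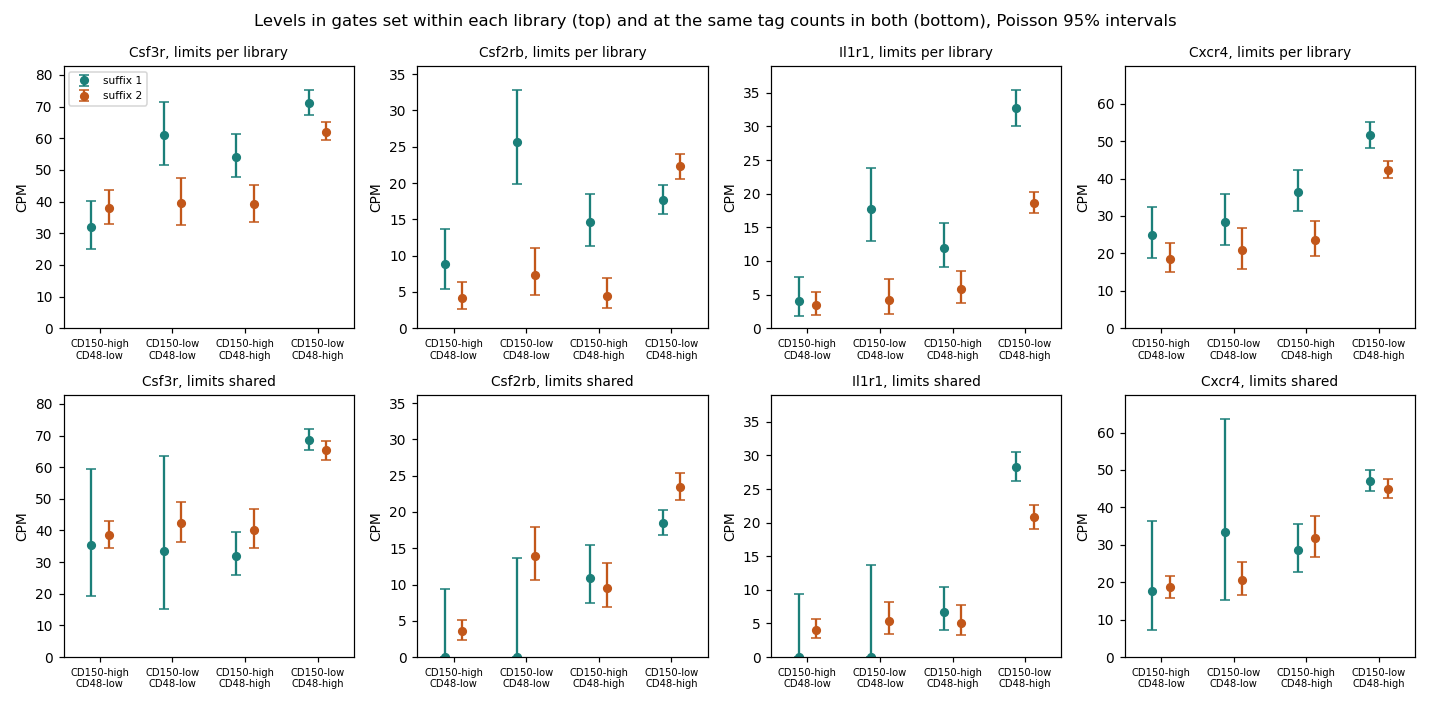
CPM of Csf3r, Csf2rb, Il1r1 and Cxcr4 in the 4 gates with tag limits set within each library (top) and at the same counts in both (bottom), with exact Poisson 95% intervals. The gap between the libraries for Csf2rb in the CD150-high CD48-high gate closes from 14.6 and 4.50 CPM to 10.9 and 9.58 CPM, and suffix 1 rests on few CD48-low cells, with 0 UMIs of Csf2rb and Il1r1.

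Within a gate the 2 libraries can be set side by side, but age, tag limits and library cannot be told apart in such a ratio. In the CD150-high CD48-low gate Csf2rb was lower in suffix 2, at 0.470 (0.245 to 0.909) of its CPM in suffix 1, 1 of 9 receptors where 14.3% of genes were lower, and 0 of 9 were higher where 9.77% were. Kit there had a ratio of 0.692 (0.608 to 0.787). In the CD150-low CD48-low gate Csf3r, Csf2rb and Il1r1 were lower in suffix 2 at 0.650, 0.284 and 0.234, 3 of 9 where 11.8% were, and 0 of 9 were higher where 11.0% were. In the CD150-high CD48-high gate Csf2rb, Il1r1 and Cxcr4 were lower at 0.308, 0.486 and 0.647, 3 of 9 where 13.5% were, and 0 of 9 were higher where 11.1% were. In the CD150-low CD48-high gate, the largest, only Il1r1 passed the rule at 0.569 (0.506 to 0.640), 1 of 9 where 3.01% were lower and 4.75% higher. Il6st, Ifnar1, Ifngr1 and Tgfbr1 stayed within 1.5-fold between the libraries in all 4 gates. The calls in the CD48-high gates rested on the limits of each library. At shared limits the CD150-high CD48-high gate read 10.9 and 9.58 CPM of Csf2rb, 6.71 and 5.14 CPM of Il1r1 and 28.6 and 31.8 CPM of Cxcr4 in suffix 1 and suffix 2, with overlapping intervals for each. Il1r1 in the CD150-low CD48-high gate then read 28.3 and 20.8 CPM, still clear of each other but within 1.5-fold. The CD48-low gates of suffix 1 held too few cells at those limits to compare.

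Receptors seen together in a cell were counted after thinning. CD150-high CD48-low cells held UMIs of 2.21 of the 9 receptors on average (SD 1.16 over 519 cells), CD150-low CD48-low cells 2.56 (SD 1.24, 372 cells), CD150-high CD48-high cells 2.47 (SD 1.20, 444 cells) and CD150-low CD48-high cells 2.82 (SD 1.30, 2435 cells). No receptor was seen in 6.17% of the first and 2.26% of the last. In these sparse counts a receptor not seen is not one that is absent.

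The partner genes comprised chains that pair with the receptors, co-receptors and close relatives. Of 14 partner genes 10 had enough UMIs, and 1 was higher in CD48-low cells (against 8.17% of all genes), Tgfbr3, the TGF-beta co-receptor betaglycan, at 11.5 and 20.1 against 5.52 and 8.44 CPM (ratios 2.09 and 2.38). None was lower (0 of 10, against 7.33% of all genes). Il5ra, Lifr, Osmr and Ackr3 had too few UMIs for the rule. Their pooled ratios were 0.178, 0.248, 6.06 (3.86 to 9.60) and 2.23, Osmr on 49 and 36 UMIs, nearly all in suffix 2. Csf2ra, the GM-CSF alpha chain, read 26.4 and 31.1 against 25.2 and 24.8 CPM, higher in CD48-low cells of both libraries by less than 1.5-fold. Its beta chain Csf2rb had ratios of 1.04 and 0.263. Il1rap, the accessory chain of the IL-1 receptor, read 6.28 and 6.02 against 5.02 and 6.23 CPM, beside ratios of 0.399 and 0.217 for Il1r1. The alpha chains Il3ra (0.772 and 0.617) and Il6ra (0.627 and 0.697) and the interferon chain Ifnar2 (0.719 and 0.677) lay below 1 in both libraries. Between the stem cell gate and the opposite corner these 3 were lower and Tgfbr3 higher, 3 and 1 of 10 where 9.84% and 11.0% of all genes were, with Il3ra at 0.610 and 0.592, Il6ra at 0.448 and 0.645 and Ifnar2 at 0.548 and 0.586, while Ifnar1 had 1.03 and 0.942. The median ratio of the 10 over the CD48 split was 0.966. Il11ra1 had 1.34 and 1.31, Tgfbr2 0.869 and 0.873, and Ifngr2 1.06 and 0.694.

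Of 24 other haematopoietic receptors 20 could be compared, and 4 were higher and 5 lower in CD48-low cells, where 8.17% and 7.33% of all genes were. The higher ones were Tek, the angiopoietin receptor (1.80 and 2.02), Il27ra (1.66 and 1.74), and the BMP and TGF-beta family receptors Eng (1.63 and 1.76) and Bmpr2 (1.51 and 1.59). The lower ones were Flt3 (0.396 and 0.0577), the chemokine receptor Ccr2 (0.175, 0.0353 to 0.530, and 0.0168, 0.000423 to 0.0944), Csf1r, Il7r and Ccr9. The last 3 had at most 5.43 CPM in CD48-high cells and 0.209 CPM in CD48-low cells. The list's median ratio was 1.12.

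Downstream, 0 of 21 signalling genes passed the rule in either direction, where 8.17% of all genes were higher and 7.33% lower, with a median ratio of 1.07. Stat2, which carries type I interferon signals, came nearest to it at 1.48 and 1.56, and the kinase Jak1 had 1.37 and 1.48. Of 13 inhibitors and feedback genes 3 were higher in CD48-low cells, where 8.17% of all genes were: Socs2 (3.78 and 5.44), Cish (2.68 and 3.25) and Socs1 (1.86 and 2.16), inhibitors of cytokine receptor signalling. Their relative Socs3 did not pass, at 1.11 (0.886 to 1.39) and 1.75 (1.53 to 2.00). Between the stem cell gate and the opposite corner Socs2 had ratios of 10.7 (7.81 to 14.8) and 11.5 (9.69 to 13.6). Of 13 ligands only Tgfb1 had enough UMIs, and it was lower in CD48-low cells at 123 and 106 against 197 and 219 CPM (0.625 and 0.484).

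**Figure D5:**
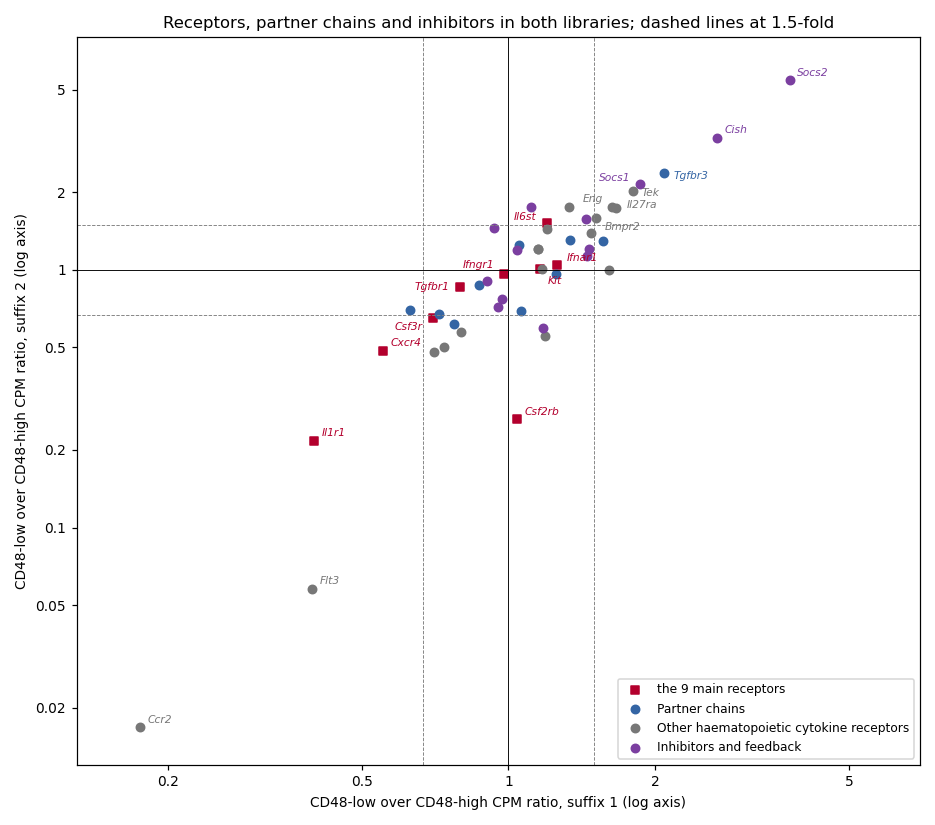
CPM ratio of CD48-low to CD48-high cells in suffix 1 (horizontal) and suffix 2 (vertical), both on log axes, for the 9 main receptors, their partner chains, other haematopoietic receptors and inhibitors, with dashed lines at 1.5-fold. Named points are the 9 receptors and genes past 1.5-fold in both libraries; Csf1r, Il7r and Ccr9 had a ratio of 0 in a library and are not drawn. Csf2rb lies at 1.04 in suffix 1 and 0.263 in suffix 2.

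Over the 8 sums of gate and library, each library centred on its own mean, the genes whose pattern was most like each receptor were listed among 9275 genes, as a description. Cxcr4 was most like Ndufa4 (r = 0.996), Hspa8 (0.995) and Ms4a3 (0.995), and Il6st most like Mylk (0.995), Gnptg (0.988) and Tead2 (0.988). Il1r1 and Csf3r shared B4galnt1 as their nearest gene (0.991 and 0.987), and with each other had r = 0.967. The next nearest were Pecam1 (0.987) and Xpc (0.985) for Il1r1 and Lrrc75a (0.986) and Tomm6 (0.983) for Csf3r. Csf2rb was most like F630028O10Rik (0.986), Bag4 (0.980) and Erap1 (0.979). Tgfbr1 was most like Bcor (0.986), Klhdc4 (0.984) and Dcp2 (0.980), and Ifnar1 most like Swap70 (0.982), Cdc40 (0.975) and Gadd45a (0.974). Kit was most like Cisd2 (0.980), Cdk17 (0.964) and Arl1 (0.948), and Ifngr1 most like Ncoa5 (0.947), Sept1 (0.944) and Ndufaf1 (0.94). The 8 sums share libraries, depth and tag limits, so these r carry no p.

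Within the CD150-high CD48-low gate the cells were also split at the median of the tag for CLCA3A1, the surface protein stained in this study. No receptor separated the resulting groups: each pooled interval of the ratio of tag-high to tag-low cells included 1. The widest pooled ratios were 1.30 (0.568 to 3.11) for Il1r1 and 1.23 (0.828 to 1.86) for Tgfbr1, and Csf3r had 0.923 (0.722 to 1.18). Differences smaller than these bounds were not detectable in 275 and 280 cells.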

How the data were processed

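CITE-seq measured RNA and antibody tags in sorted LSK cells of 2 libraries, 1 per age. The authors made the deposited UMI counts with Cell Ranger 3.1.0 on mm10 (GRCm38, per the submitters' processing notes) and combined the libraries with its aggregation step, which normalizes depth, so the depths are those after it. The tag values were deposited by the authors as log10 of CITE-seq-Count tag counts, and a tag count of 0 was ranked lowest. No column of per-sample values was left unused (0).

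Cells with under 10% mitochondrial UMIs and over 1500 genes were kept, 71367333 UMIs in all (27345371 and 44021962). UMIs were summed per gate and library and divided by their total (CPM). Intervals were exact Poisson (levels), conditional binomial (ratios) and Clopper-Pearson (shares) at 95%. Cells were thinned to 9000 UMIs, and 216 shallower cells were left out of shares. Scrublet called 5 (0.328%) and 32 (1.26%) cells doublets, which were kept. Likeness used log2(CPM + 10) of genes with at least 500 UMIs, taking the 3 highest r. The text names the 9 receptors, their partner chains, list genes past 1.5-fold in CD48-low against CD48-high cells, and the 3 nearest genes. Stat2, Jak1 and Socs3 were named after their values were seen. A listed gene is not reported here and was left out of its list's counts. Members and lists were chosen with earlier results of these data known. Python 3.11.15, numpy 2.4.6, scipy 1.17.1, pandas 2.3.3 and scanpy 1.11.5 were used. The ratio calls were tried on simulated Poisson counts with planted changes, which hold no spread between cells, mice or libraries. No replicates exist, so no test was run. Alternatives changed the cell filter, tag limits, scaling, depth, doublets, cell subsets, call rule and fold.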

Additional observations from a re-analysis of the deposited data

Results flagged for a closer look

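Some ratios had opposite directions in the 2 libraries, and these differences were not tested. The CD48-low to CD48-high CPM ratio of Csf2rb was 1.04 in suffix 1 and 0.263 in suffix 2. In CD150-high CD48-low against CD150-low CD48-high cells Kit had 1.36 and 0.928, and Ifnar1 had 1.03 and 0.942. In CD150-high against CD150-low cells Kit had 1.22 and 0.767 among CD48-low cells, and Tgfbr1 had 1.08 and 0.845 among CD48-high cells. For Ifnar1 and Tgfbr1 the interval in each library included 1, as it did for Csf2rb in suffix 1 (0.813 to 1.32) and for Kit in suffix 2 of the first Kit comparison (0.851 to 1.01). The intervals of Kit among CD48-low cells, 1.06 to 1.42 and 0.678 to 0.868, did not. At tag limits shared by both libraries the opposite directions of Kit were gone, with 1.07 and 1.04 in the first comparison and 0.865 in both libraries among CD48-low cells. The Csf2rb ratio was then 0 and 0.326, with 0 UMIs in the few CD48-low cells of suffix 1.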

How the results depend on the processing

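No paired analysis was possible because the labels give no replicates that pair and the result came from no test; each gate comparison was made within each library. Of 136 alternative counts of receptors 104 stayed within 1.5 times the reported count and 32 did not, and the causes were not tested beyond the settings themselves. Among CD48-low cells the receptors higher and lower in CD150-high cells went from 0 and 1 to 1 and 0. This was so as UMIs per cell and after thinning. As UMIs per cell Csf2rb did not turn: it stayed lower, at 0.116 against 0.319 and 0.0574 against 0.0840, past 1.5-fold in suffix 1 alone. Il6st passed instead, at 0.215 against 0.137 and 0.240 against 0.160. As UMIs per cell the pooled CD48 ratios of Kit, Il6st and Ifnar1 turned, from 1.06, 1.39 and 1.12 to 0.705, 0.923 and 0.741. That scaling lowers the pooled ratio of every gene by the same factor, so these turns are not particular to the 3 receptors. Kit turned to 0.997 after thinning and 0.870 without cycling cells, and Ifnar1 to 0.762 under the strict filter and 0.955 without cycling cells. For receptors lower in CD48-low cells the reported 2 became 4 with the outer 25% of both tags, 4 with shared percentiles and 4 within suffix 2. It became 1 at 2-fold and 6 as UMIs per cell, where every gene's pooled ratio is lowered. For higher ones 0 became 1 within suffix 2. Beyond the CD48 split at shared percentiles, the share of all genes called was not counted under the alternatives. Their counts show how the calls moved and are no result about the receptors. In the stem cell gate against the opposite corner, higher receptors went from 0 to 1 with no cell filter, the outer 25%, the mean CPM of each cell, the pooled call rule, the lower fold tried and within suffix 2, and lower ones from 4 to 2 at 2-fold. Among CD48-low cells, receptors higher in CD150-high cells went from 0 to 1 with the strict filter (over 2500 genes and under 5% mitochondrial UMIs, 367 cells), UMIs per cell, thinning and the lower fold. Lower ones went from 1 to 2 with a median split, the outer 25%, the pooled rule and the lower fold, to 0 with shared percentiles, UMIs per cell, thinning and 2-fold, and to 3 within suffix 1. Among CD48-high cells, higher ones went from 0 to 1 with the outer 25% and within suffix 2, and lower ones from 1 to 3 with shared percentiles, the pooled rule and the lower fold, and to 4 within suffix 2. The counts within a single suffix were added after seeing the data. The pooled CD48 ratio of Il1r1 and Cxcr4 stayed below 1 in 12 of 12 alternatives each, Cxcr4 reaching 0.747 without cycling cells. Depth limits the stem cell gate: Il1r1 rests there on 9 and 18 UMIs and Csf2rb on 20 and 22.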
